A study of Drosophila melanogaster with 3 samples.

Results

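The *Drosophila melanogaster* genes *mid*, *H15*, *bi*, *org-1* and *byn* are the T-box genes outside the Dorsocross cluster, and peaks of tagged Zen protein were described at these 5 genes. They were taken by name, and a gene's territory was its body in the Ensembl annotation with 2 kb added at each end. Chromatin immunoprecipitation with sequencing was done with an anti-GFP antibody on whole embryos aged 0 to 4 h, males and females together. The embryos carried a stable zen-eGFP transgene, which makes Zen with GFP at its C terminus, and sonicated fragments ran from 200 to 800 bp. Cells with and without Zen were not separated. The 3 libraries are biological replicates of this single condition, and libraries from untagged embryos were not analysed here. The territories held 17 of the 7405 summits in the set that passed the irreproducible discovery rate (IDR), a filter on agreement between replicates, and 5 of 13945 protein-coding genes were considered.

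T-box proteins are transcription factors that share one type of DNA-binding domain, and many of them act in mesoderm, heart and gut. Zen is a homeodomain protein of the dorsal side of the early embryo, where it is needed for the amnioserosa, an extraembryonic tissue. *mid* and *H15* are neighbouring, related genes that act in the heart and in the ventral parts of segments and appendages. *bi*, also known as optomotor-blind, is needed in the optic lobe and is a target of the BMP ligand Dpp in the wing. *org-1* acts in founder cells of muscles, and *byn*, the fly counterpart of mouse Brachyury, is needed to form the hindgut. The Dorsocross genes *Doc1*, *Doc2* and *Doc3* are T-box genes of the amnioserosa and the dorsal mesoderm.

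Sequences of the strongest summit of each gene are shown first, with 3 further ones that the later results turn on. Each runs over 201 bases of the dm6 plus strand with the summit at its centre, read from the RefSeq copy of that assembly, and none overlaps an annotated exon. Capitals mark the T-box core GGTGTG, the homeodomain core TAATTA, the Zelda core CAGGTA and the GAGA factor repeat GAGAGA on either strand. In the sequences at the *mid* and *H15* starts they also mark a stretch of 12 bases that both contain. The first lies 311 bp before the start of *mid* (chr2L:5461228-5461428), the second in a *mid* intron (chr2L:5464671-5464871) and the next 420 bp before the start of *H15* (chr2L:5403760-5403960). The fourth lies in an *H15* intron (chr2L:5410447-5410647) and the fifth in a *bi* intron (chrX:4456761-4456961). The sixth lies next to an internal *bi* start (chrX:4426900-4427100), the seventh 360 bp before the start of *org-1* (chrX:8455329-8455529) and the eighth in a *byn* intron (chr3L:11932926-11933126).
*mid* start: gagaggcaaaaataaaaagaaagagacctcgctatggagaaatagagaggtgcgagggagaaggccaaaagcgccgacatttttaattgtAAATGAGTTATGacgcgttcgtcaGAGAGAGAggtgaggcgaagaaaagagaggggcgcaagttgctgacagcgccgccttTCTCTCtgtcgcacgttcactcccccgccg
*mid* intron: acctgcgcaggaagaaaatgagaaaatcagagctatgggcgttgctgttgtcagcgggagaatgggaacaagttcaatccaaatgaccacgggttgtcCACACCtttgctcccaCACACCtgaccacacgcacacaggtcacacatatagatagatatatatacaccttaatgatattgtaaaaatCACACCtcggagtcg
*H15* start: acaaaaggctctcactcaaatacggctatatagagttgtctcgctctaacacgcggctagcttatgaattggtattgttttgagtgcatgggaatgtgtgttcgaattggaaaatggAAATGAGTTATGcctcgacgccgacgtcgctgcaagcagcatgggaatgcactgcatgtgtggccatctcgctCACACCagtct
*H15* intron: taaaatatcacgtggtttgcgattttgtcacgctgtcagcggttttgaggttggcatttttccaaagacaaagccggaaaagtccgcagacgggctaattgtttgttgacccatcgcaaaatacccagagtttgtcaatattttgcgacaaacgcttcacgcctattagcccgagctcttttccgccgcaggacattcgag
*bi* intron: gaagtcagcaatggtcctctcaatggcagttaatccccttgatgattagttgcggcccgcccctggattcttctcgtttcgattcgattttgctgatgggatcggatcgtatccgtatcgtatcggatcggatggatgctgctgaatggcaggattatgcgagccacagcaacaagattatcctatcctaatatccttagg
*bi* internal start: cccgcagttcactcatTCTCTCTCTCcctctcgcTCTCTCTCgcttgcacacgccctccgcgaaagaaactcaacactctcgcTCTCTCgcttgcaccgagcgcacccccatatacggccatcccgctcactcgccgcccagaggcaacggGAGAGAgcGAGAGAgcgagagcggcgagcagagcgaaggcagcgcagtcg
*org-1* start: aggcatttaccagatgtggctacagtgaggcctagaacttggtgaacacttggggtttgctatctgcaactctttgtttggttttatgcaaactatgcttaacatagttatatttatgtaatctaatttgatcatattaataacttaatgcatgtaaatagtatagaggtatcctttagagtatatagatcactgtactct
*byn* intron: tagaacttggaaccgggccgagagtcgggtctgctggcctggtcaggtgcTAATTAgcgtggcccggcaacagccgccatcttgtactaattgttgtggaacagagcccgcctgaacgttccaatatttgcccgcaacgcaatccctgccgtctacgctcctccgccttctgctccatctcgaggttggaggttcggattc

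Each library list held 30000 summits and the IDR set was ordered by the signal value that the authors gave each peak, with rank 1 the strongest. Signal values come from a score whose scale differs between lists, so ranks were compared and the values were not. The lists carry no read counts and the depth of each library is therefore unknown. Of the strongest 7405 summits of a library, between 64.6 and 71.6% had one within 100 bp among the strongest 7405 of another, and 0 peaks were identical between libraries.

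All 5 genes held at least 1 IDR summit, and across the genome 46.8% of protein-coding genes did. The counts were 9 at *bi*, 4 at *H15*, 2 at *mid* and 1 each at *org-1* and *byn*. When each library's own strongest 7405 summits were used instead, all 5 genes were again marked in every library, where 45.4, 44.8 and 48.3% of protein-coding genes were marked in replicates 1, 2 and 3. The territories then held 17, 16 and 12 summits, a mean of 15 ± 2.65 (SD, n = 3). Among summits shared by the strongest 7405 of a pair of libraries the count was 9 without replicate 1, 10 without replicate 2 and 13 without replicate 3. No test was run on the 5 genes as a list, since they were chosen with results of these data known.

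Summit density was highest at *H15* and *mid*. *bi* spans 72792 bp and its 9 summits came to 0.117 per kb of territory. *H15* reached 0.245 per kb and *mid* 0.201 per kb, above 89.7 and 84.4% of protein-coding genes. *org-1* and *byn*, at 0.0879 and 0.0818 per kb, lay above 60.1 and 59.4% of those genes, since a gene with no summit counts as 0. The average over the 6 chromosome arms analysed was 0.0553 summits per kb.

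**Figure D1:**
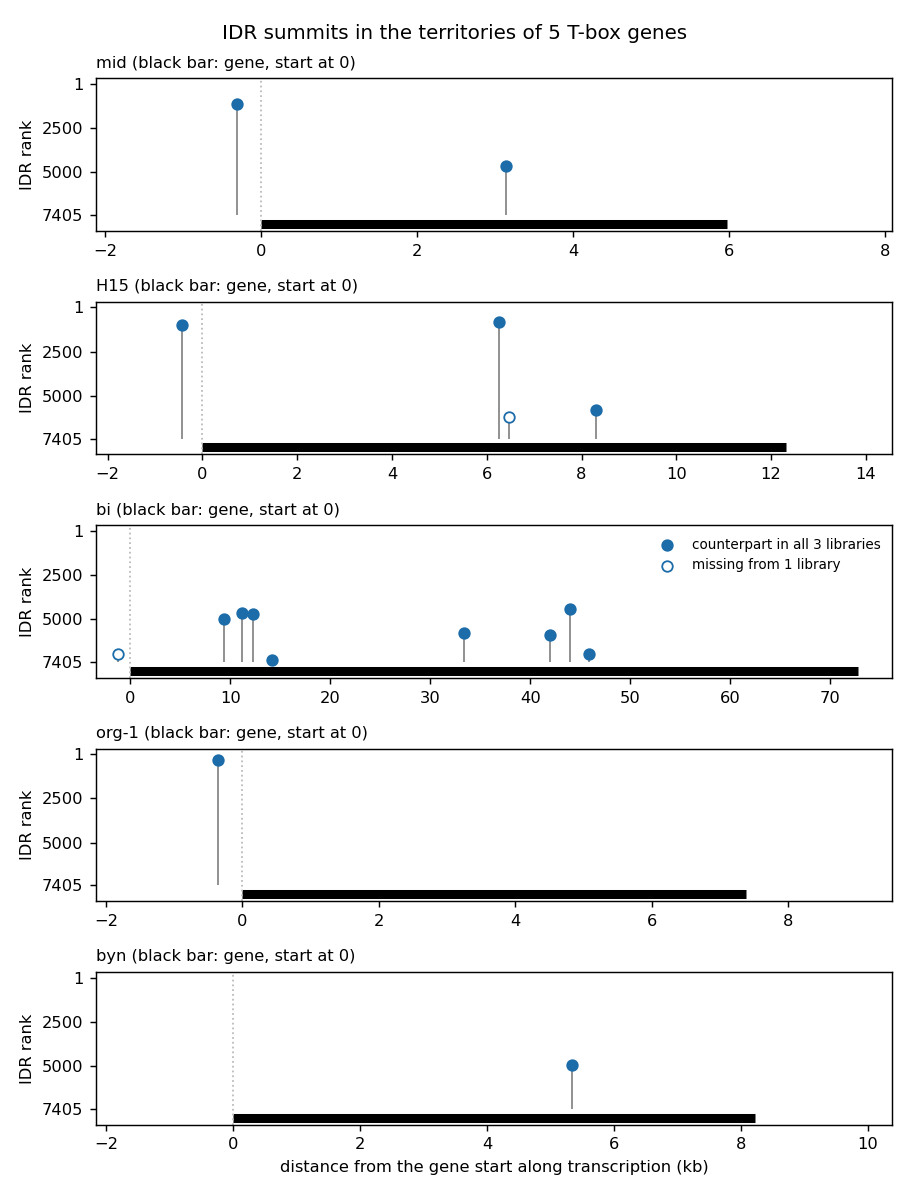
IDR rank (rank 1 at the top) of each summit against its distance in kb from the start of the gene, in the direction of transcription, for the 5 T-box genes. The black bar is the gene, filled points have a summit within 100 bp in all 3 libraries and open points lack one in 1 library. *mid*, *H15* and *org-1* have a strong summit 311 to 420 bp before the start, and the 9 summits of *bi* all rank between 4421 and 7268.

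Within these territories, strength separated the genes in the same order in every library. The strongest summit in the *org-1* territory ranked 565, 404 and 235 in replicates 1, 2 and 3, a mean of 401 ± 165 (SD, n = 3). That of *H15* ranked 596, 557 and 1583 (mean 912 ± 581), and that of *mid* 1110, 1061 and 1672 (mean 1280 ± 340). *bi* followed with 3760, 2451 and 3609 (mean 3270 ± 716) and *byn* with 4374, 4788 and 6165 (mean 5110 ± 938). The ranges of *org-1* and *H15* over the libraries overlapped, as did those of *H15* and *mid*. Within each library *org-1* still ranked ahead of *H15*, and *H15* ahead of *mid*. These differences were not tested. The range of *mid* did not overlap that of *bi*, and that of *bi* did not overlap that of *byn*. *bi* offers 22 to 25 summits per library from which the strongest is taken, and *org-1* offers 1 to 3. The last place of *byn* depends on the 2 kb limit. A summit 2110 bp upstream of it, outside the territory, ranked 598, 452 and 1641, ahead of the best of *mid* in each library.

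*org-1* had the strongest summit of the 5 genes and no other in the IDR set. The gene lies on X from 8447691 to 8455069 on the minus strand, with FBgn0021767 as its identifier. Its only IDR summit lay 360 bp before the start, at IDR rank 349, in intergenic sequence (interval 8455289 to 8455571). This is the seventh sequence above, and at 33.3% its G and C content was the lowest of the 17 summit windows. Of protein-coding genes with a summit, 91.9% had a weaker strongest summit than *org-1*. *CG32713* also reaches into the territory from the upstream side, and the annotated start nearest to the summit was that of *org-1*. No further summit of the territory appeared in the pooled list of 30000. The nearest summit beyond the territory lay 2577 bp downstream of the gene (rank 2027) and had no counterpart in replicate 3.

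*H15* combined a summit at its start with a stronger one inside the gene. It lies on 2L from 5404280 to 5416593, plus strand, as FBgn0016660. The summit 420 bp before the start (intergenic, interval 5403754 to 5403950) had IDR rank 1025 and ranks 943, 868 and 1583 in replicates 1, 2 and 3. The intronic summit 6267 bp after the start, in an interval from 5410381 to 5410757, had IDR rank 816 and ranks 596, 557 and 1891. Replicates 1 and 2 thus placed the intronic summit first, and replicate 3 placed the one at the start first. The same interval held another summit, 6476 bp after the start (IDR rank 6200), which ranked 5093 and 4412 in replicates 1 and 2 and had no counterpart in replicate 3. A weak intronic summit 8301 bp after the start (IDR rank 5769) ranked 5653, 5025 and 7923.

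*mid* shared the placement close to the start. It lies 45.0 kb downstream of *H15*, on 2L from 5461639 to 5467610, plus strand, as FBgn0261963. The summit 311 bp before its start (intergenic, interval 5461178 to 5461447) had IDR rank 1158, close to the corresponding *H15* summit in each of the 3 libraries. The second summit lay in an intron 3132 bp after the start, in an interval from 5464703 to 5464874 (IDR rank 4639). It ranked 3028, 6632 and 5825 in replicates 1, 2 and 3, so it was stronger in replicate 1 than in the others. Both *mid* summits had a counterpart in every library.

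The summits before the starts of *mid* and *H15* also had a stretch of sequence in common. The longest run that the 201-base windows shared was aaatgagttatg, on the same strand, at 5461318 to 5461329 before *mid* and at 5403877 to 5403888 before *H15*. It began 321 bp before the *mid* start and 403 bp before the *H15* start, and its centre lay 4 and 22 bases from the summits. Of all 7405 IDR windows only these 2 held this run, 0.027%, and it occurred 55 times on the 6 arms counting both strands. On opposite strands the longest run these windows shared was 6 bases. The run was found by comparing this pair of windows after their ranks were seen, so both hold it by construction. Runs shared by other pairs of windows were not measured, so its rarity does not show that this pair is unusually alike. No factor is assigned to the run here.

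The region between both genes and the side beyond *mid* held more summits outside the territories. Between the territories of *H15* and *mid* lay 41.0 kb with 5 summits, 0.122 per kb, at ranks 3678 to 6499. All 5 were in the 20 kb nearest to *H15*, and the 20 kb nearest to *mid* held 0. The 20 kb downstream of the *mid* territory held 4 summits. The strongest of them, 6477 bp past the end of *mid* in an interval from 5473914 to 5474296, had rank 1094 and ranks 1116, 481 and 2950 in replicates 1, 2 and 3. Its IDR rank was close to that of the summit at the *mid* start (1158). Against that summit it ranked ahead in replicate 2 (481 against 1061) and behind in replicate 3 (2950 against 1672). The nearest annotated start was that of *mid* itself, 12448 bp away. For the summit in an overlapping interval (rank 4186) it was that of lncRNA:CR45287, 12615 bp away.

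*bi* carried 9 summits of low rank. It lies on X from 4412856 to 4485647, plus strand, as FBgn0000179, and has 3 annotated starts. A long noncoding RNA gene, lncRNA:CR32773, covers all of it, so all 9 summits are in introns of that gene, and 8 of them in introns of *bi* as well. Their IDR ranks ran from 4421 to 7268, with a median of 5760, and 0 of them were among the 3702 strongest IDR summits. Of protein-coding genes with a summit, 29.0% had a weaker strongest summit than *bi*. Only 1 *bi* summit lay within 500 bp of a start, 135 bp before the internal start at rank 7268, which is the sixth sequence above.

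Inside *bi* the summits fell into separate stretches. In the first, 4 summits lay 9392, 11158, 12304 and 14144 bp after the first start, leading up to the internal start, at IDR ranks 4955, 4663, 4697 and 7268. A lone summit followed at 33425 bp (rank 5760), and 3 more lay 41985, 44005 and 45851 bp after the first start, at ranks 5898, 4421 and 6951. The strongest, at 44005 bp in an interval from 4456765 to 4456976, ranked 3760 and 2451 in replicates 1 and 2 and 10715 in replicate 3. The summit at 33425 bp went the other way, with ranks 10506, 6096 and 3742. The remaining summit, 1226 bp before the first start (rank 6967), had no counterpart in replicate 2. Replicate 3 placed the summit at 11158 bp first, at rank 3609, against 4058 and 8702 in replicates 1 and 2. Which *bi* summit was strongest therefore differed between libraries. Of the 9 intervals 8 were exactly 416 bp wide, a width shared by 54.2% of all IDR summits, with the summit in the middle.

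*byn* had a single weak summit in its territory. It lies on 3L from 11927693 to 11935919, plus strand, as FBgn0011723, inside an intron of *CG44837* on the other strand. The summit fell in an intron of both genes 5333 bp after the *byn* start, in an interval from 11932818 to 11933233, at IDR rank 4923 and at ranks 4374, 4788 and 6165 in replicates 1, 2 and 3. Of protein-coding genes with a summit, 23.4% had a weaker strongest summit. A much stronger summit lay just past the 2 kb limit, 2110 bp upstream of *byn*, at rank 769 and ranks 598, 452 and 1641 in the libraries. It is in an intron of *CG44837*, and the nearest annotated start, 826 bp away, is that of *SdhAL*.

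**Figure D2:**
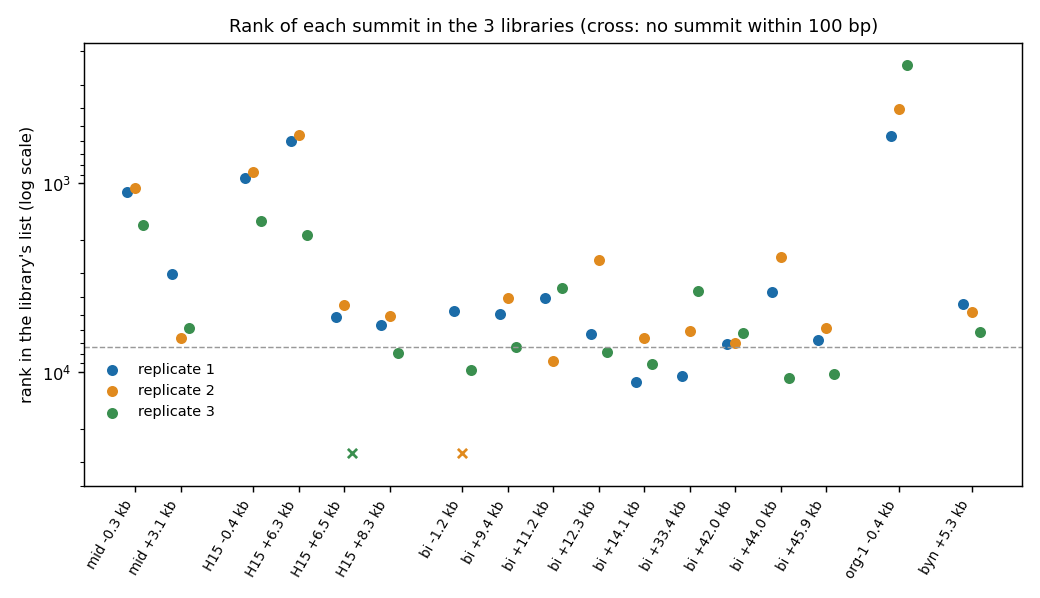
Rank of each of the 17 summits in the lists of replicates 1, 2 and 3, on a log axis with strong summits at the top, ordered by gene and by distance from the gene start. The dashed line is rank 7405 and crosses mark a summit with no counterpart within 100 bp. The *org-1* summit is strongest in replicate 3, whereas both leading *H15* summits and the *mid* summit at the start are weakest there.

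Most summits at these genes were found in every library. A counterpart within 100 bp existed in all 3 libraries for 15 of the 17 summits, and 88.3% of all IDR summits had one. When the counterpart had to be among the strongest 7405 of each library, 8 of 17 had one in all 3, and 57.7% of all IDR summits did. Of the 15 summits, 9 ranked weaker in replicate 3 than in both other libraries, against 35.0% of all IDR summits found in the 3 libraries. The log2 ratio of the rank in replicate 3 to the geometric mean of the other ranks had a median of 0.57 at these genes and of -0.18 over all IDR summits. The cause of the lower placement in replicate 3 was not tested. The pooled list held 33 weaker summits in these territories outside the IDR set, and 3 of those had a counterpart in every library.

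By position, these summits lay in introns more than at starts. Introns held 14 of 17, against 38.8% of all IDR summits, and intergenic sequence 3 of 17, against 46.6%. Within 500 bp of an annotated start lay 4 of 17, against 46.8% of all. Of the 14 intronic summits 9 belonged to *bi*, the longest of the 5 genes. Exons held 0 of them. *bi* and *org-1* lie on X, which males carry in a single copy, and the part of this in their ranks was not tested.

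Motif matches within 100 bp of the summits were counted on both strands. Their shares describe 17 windows and no test was made. The homeodomain core TAATTA occurred in 3 windows (17.6%), against 18.6% of all IDR windows and 11.7% of windows centred 1000 bp away from all IDR summits. These windows belonged to *byn* and to the *bi* summits at 9392 and 33425 bp, and the *byn* match lay 48 bases from the summit. CAGGTA, the core bound by Zelda, an activator of the early zygotic genome, occurred in 1 window (5.88%), at the *H15* summit 8301 bp after the start, against 10.2% of all IDR windows. The strong summits before *mid*, *H15* and *org-1* held neither TAATTA nor CAGGTA in these windows. At this window length these shares are near or below those of all IDR summits. Within 50 bp of the summit TAATTA was in 17.6% of the 17 windows, against 10.7% of all IDR windows, and CAGGTA in 5.88%, against 4.93%. Of 34 windows centred 1000 bp from the T-box summits, 3 held TAATTA (8.82%) and 1 held CAGGTA (2.94%).

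GGTGTG, the core of the site that T-box proteins recognise, occurred in 4 windows (23.5%), against 8.6% of all IDR windows. 3 of its matches fell in a single window, that of the *mid* intronic summit shown above as the second sequence. There it occurred as CACACC on the printed strand, once across the summit and again 16 and 88 bases from it. The other windows were those of the *H15* summits 420 bp before and 8301 bp after the start and of the *bi* summit at 12304 bp. Within 50 bp of the summit only 1 of 17 windows (5.88%) kept a match, the one in *mid*, against 4.23% of all IDR windows cut to the same length. Around these summits, 5 of 34 windows centred 1000 bp away held GGTGTG, 14.7%.

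GAGAGA, the repeat bound by GAGA factor, occurred in 5 windows (29.4%), against 10.2% of all IDR windows and 7.93% of windows 1000 bp away. Around these summits, 2 of 34 windows held it (5.88%). The 5 windows were the window before *mid*, with 3 matches, 2 of which overlap, and 4 windows of *bi*. The *bi* window at the internal start held 8 matches, several of which overlap, and had the highest G and C content, 63.7%. The median G and C content was 47.8% over the 17 windows and 38.3% over all IDR windows, and its part in these shares was not tested. Of the other motifs, CAAGTG of Tinman, a homeodomain protein of the heart, was in 4 windows at *bi* and *org-1* (23.5%), against 11.8% of all IDR windows and 12.6% of windows 1000 bp away. Of the 34 windows 1000 bp from the T-box summits themselves, 7 held it (20.6%). GATAAG of GATA factors was in 2 windows, CACATG of Twist in 2 and TTTATG of Caudal in 3, against 10.8, 8.22 and 22.7% of all IDR windows. TAAATT and CGAGTA, rearrangements of the letters of TAATTA and CAGGTA, were in 0 windows, against 33.3 and 4.66% of all IDR windows.

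**Figure D3:**
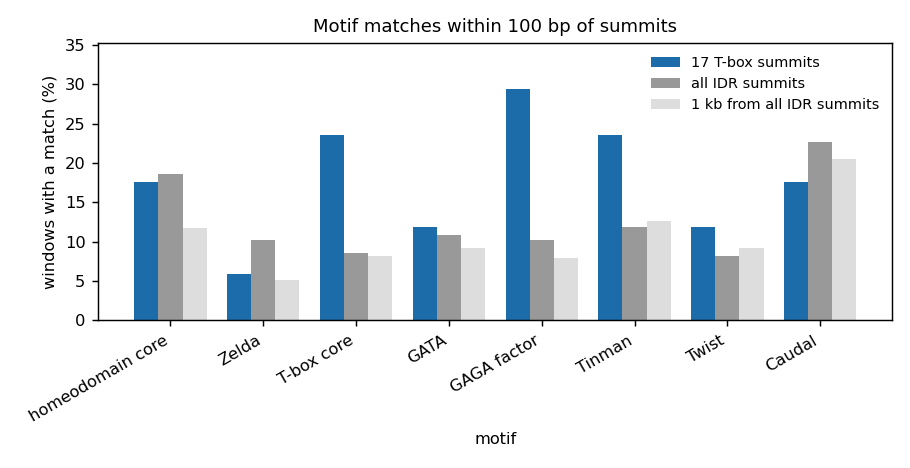
Percentage of windows of 201 bases with a match to each motif, for the 17 summits at the T-box genes, for all 7405 IDR summits and for windows centred 1 kb to either side of all IDR summits. With 17 windows, 1 window is worth 5.88%, and the bars for T-box core and Tinman (23.5% each) and GAGA factor (29.4%) stand above those of all IDR summits.

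The Dorsocross genes were set beside the others on the same scale. *Doc1*, *Doc2* and *Doc3* held 15 summits in 24.3 kb of territory, 0.618 per kb, against 17 in 127 kb, 0.134 per kb, at the other T-box genes, where *bi* makes up 76.8 kb. Gene by gene the groups overlapped. *Doc2* and *Doc1* held 9 and 5 summits, 0.852 and 0.652 per kb, whereas *Doc3* held 1, 0.165 per kb, below *H15* and *mid*. The strongest *Doc1* summit, at IDR rank 1373, was weaker than those of *org-1*, *H15* and *mid*. The median IDR rank was 1728 at the Dorsocross genes and 4923 at the others, and the 3702 strongest IDR summits included 11 of 15 and 4 of 17. The best ranks of *Doc2* in the libraries (109, 84 and 342) were stronger than those of *org-1* in replicates 1 and 2 and weaker in replicate 3. A counterpart in all 3 libraries existed for 11 of 15 Dorsocross summits. The difference between these groups of genes was not tested.

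**Figure D4:**
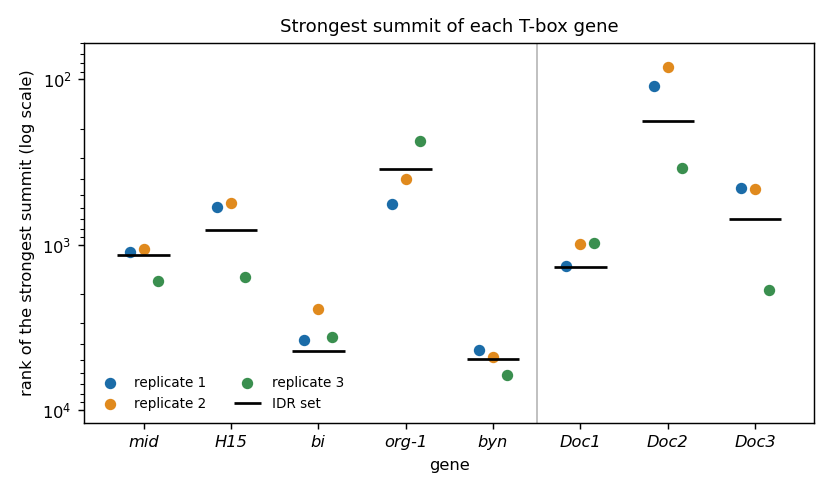
Rank of the strongest summit in the territory of each of the 8 T-box genes, in replicates 1, 2 and 3 (points) and in the IDR set (black lines), on a log axis with strong summits at the top. *org-1* lies between *Doc2* and *Doc3* in the IDR set, and *bi* and *byn* are the weakest of the 8 within these territories. A stronger summit (IDR rank 769) lies 2110 bp upstream of *byn*, outside its territory.

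Genes that work with the T-box genes were looked at in 4 lists, written with earlier results of these data known. Of genes that act in the hindgut with *byn*, 11 of 11 had an IDR summit in their territory, against the 46.8% of all protein-coding genes. Their best summits had a median rank of 1221, and the median over all genes with a summit was 2885. The leading ones were *otp*, a homeobox gene (rank 353), and *bowl*, a zinc-finger gene whose strongest summit (rank 391) lacked a counterpart in replicate 1. The terminal gap genes *tll* and *hkb*, which set up the posterior gut, ranked at 732 and 1221, and *fkh*, a forkhead gene of the gut, at 1077. Not every gene of the list had a stronger summit than *byn* (rank 4923). *lin*, needed for the hindgut, had its only summit at rank 5502, and the Wnt gene *wg* ranked at 4227.

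For the heart and dorsal mesoderm, where *mid* and *H15* act, 9 of 11 genes had a summit, with a median best rank of 432. The GATA gene *pnr* (rank 36) and the MADS-box gene *Mef2* (rank 66) led. The bHLH gene *Hand* and the homeobox gene *bap* had no summit in the IDR set, although *Hand* had 1 among the strongest 7405 of replicates 2 and 3 each. Of the genes of the Dpp gradient in the wing, where *bi* is a target, 9 of 10 had a summit, with a median of 845. *shn* (rank 138, the best of 16 summits) and the Smad gene *Med* (rank 182) led. *salr* had none in the IDR set and 2 among the strongest of replicate 2. Of the muscle genes listed with *org-1*, 8 of 11 had a summit, with a median of 616. *kirre* (rank 77, the best of 20 summits) and *lbe* (rank 432) led. *slou*, *bap* and *ap* had none in the IDR set, and *ap* had 1 among the strongest 7405 of replicate 1. Of all protein-coding genes 46.8% had a summit, and the median best rank of those was 2885. *bap*, *tup* and *lbe* belong to 2 of the lists, so the lists are not independent, and their counts were not tested.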

How the data were processed

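Peaks were called on dm6 for each of 3 libraries and for the pooled libraries, with control alignments, and an IDR set was derived from these lists, per the deposited notes. The names and versions of caller and aligner were not given in the sources used here. Every deposited peak carries a signal value, a score of unstated scale, and it served to order the peaks of each list. The deposited −log10 q-value was the same, 4.18, for the whole IDR set and served no result. Read depth is unknown, which leaves the precision of single ranks to the spread over the 3 libraries.

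Summits (interval start plus offset) were placed on the Ensembl annotation of release 115, which has dm6 coordinates. The arm lengths of the RefSeq assembly exceeded the last peak and gene of each arm. A counterpart was the strongest summit of a library within 100 bp. Consensus lists kept the summits of the lower-numbered library of a pair with a counterpart, both among its strongest 7405. Ranks, counts and shares were computed with Python 3.11.15, numpy 2.4.6 and pandas 2.3.3, and tested on simulated data. There is 1 group, so no test between conditions was made. Members and lists were chosen with earlier results of these data known. The text names each member summit, the strongest pair and the unmarked genes of each list, and neighbours. The other hindgut genes, GAGAGA as a result with alternatives and the run shared by *mid* and *H15* were chosen after their values were seen.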

Additional observations from a re-analysis of the deposited data

How the results depend on the processing

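All 5 genes kept a summit with territories of 1000 bp and without each replicate in turn. They also did with 2 times as many pooled peaks, territories of 5000 bp and 1 summit per interval. The latter settings could not have left a marked gene without a summit. The share of all protein-coding genes with a summit was then 62.4% for the pooled peaks, 40.3 and 60.7% for the territories, 46.8% for 1 summit per interval and 36.9 to 38.6% without a replicate. Among the 3702 strongest IDR summits 3 genes had one, *bi* and *byn* having none, against 28.5% of protein-coding genes, and the territories held 4 summits, all 4 with counterparts in every library, against 94.0% of those 3702. Leaving out a replicate gave 9 to 13 summits instead of 17, and these consensus lists are stricter by construction. With counterparts among each library's strongest 7405, 8 of 17 summits were matched, against 57.7% of all. Motif shares rest on few windows and moved. In the 4 windows among those 3702, TAATTA and CAGGTA were in 0%, against 21.3 and 11.3% of the 3702. GGTGTG and GAGAGA were in 25.0% each, against 7.51 and 10.5%. Within 50 bp, TAATTA was in 17.6%, CAGGTA in 5.88%, GGTGTG in 5.88% and GAGAGA in 23.5%. The shares of all IDR windows were 10.7, 4.93, 4.23 and 4.38%. Without a replicate, TAATTA was in 15.4 to 33.3% of windows, CAGGTA in 0 to 7.69%, GGTGTG in 15.4 to 22.2% and GAGAGA in 22.2 to 40.0%. The alternatives for GAGAGA were chosen after seeing the data. Depth is unknown, so a missing summit does not show absence of binding.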
